A study of Mus musculus with 10 samples.

Results

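The respiratory chain genes are the 96 genes of the mouse oxidative phosphorylation complexes that were counted in B16F10 tumors, 85 encoded in the nucleus and 11 in the mitochondrial genome. They were taken by symbol: names starting Ndufa, Ndufb, Ndufc, Ndufs, Ndufv, Uqcr, Cox4 to Cox8 or Atp5, and the mt-Nd, mt-Co, mt-Atp and mt-Cytb genes, without pseudogene symbols. Of 55401 gene rows, 107 had such a symbol, and 96 of them reached 10 counts in at least 5 of the 10 tumors. The 11 rows under that limit were *Cox6b2*, *Cox6c2*, *Cox7b2*, *Cox8b*, *Cox8c*, *Ndufa11b*, *Ndufb4c*, *Ndufs6b*, a second row named *Atp5o*, *mt-Atp8* and *mt-Nd4l*. *mt-Atp8* came nearest, with at least 10 counts in 3 tumors, and *Cox6a2* (6 tumors) and *Cox4i2* (8 tumors) were among those just inside. The nuclear members comprise 36 genes of complex I, 8 of its assembly factors, 8 of complex III, 16 of complex IV and 17 of complex V, and the mitochondrial ones 6 of complex I, 1 of complex III, 3 of complex IV and 1 of complex V. *Ndufb1-ps* had 772 to 3251 counts per tumor but was left out because of its symbol.

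The tumors grew from B16F10 cells, a mouse melanoma line, placed under the skin of C57BL/6J mice of 9 to 12 weeks. Of the tumors, 5 came from *Mir25* KO cells, edited with CRISPR-Cas9 in the gene of the microRNA miR-25, and 5 from cells with a non-targeting control guide (NTC). All 10 mice received Comb, which is GVAX (irradiated B16 cells that secrete GM-CSF, on days 1 and 4) plus 10 mg/kg of αPD-1, given on days 6, 9 and 12, and all tumors were taken on day 15. The comparison therefore asks how the respiratory chain mRNAs of treated tumors differ with the *Mir25* genotype of the injected cells. The study's methods describe edited cells used as a bulk population as well as single clones, and the labels do not say which of them formed these tumors. The row named *Mir25* was at 0 in all 10 tumors, which gives no check of the deletion. The labels give each library as a tumor of its own but do not tie it to a culture of injected cells, and the p-values measure the spread between these tumors.

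Oxidative phosphorylation runs on the complexes I to V of the inner mitochondrial membrane. Complex I takes electrons from NADH, complex II from succinate, complex III passes them from ubiquinol to cytochrome c and complex IV hands them to oxygen, and complex V (ATP synthase) makes ATP from the proton gradient that complexes I, III and IV build. Most subunits are encoded in the nucleus and imported, whereas 13 proteins, core parts of complexes I, III, IV and V, are transcribed within the mitochondrion from its own circular genome. The transcription factors NRF-1, GABP and YY1 and the coactivator PGC-1α (*Ppargc1a*) are known regulators of the nuclear genes, and in melanoma cells PGC-1α lies downstream of MITF, the pigment cell transcription factor.

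Reads on genes numbered 23243707 to 27006075 in KO tumors and 24145795 to 28682130 in NTC replicates 2 to 5, and 11896643 in NTC replicate 1. That library stood apart: its share of reads outside genes was 42.9%, the others having 17.5% to 28.2%, and 33193 genes had a count, where the others had 22192 to 25435. Fold changes are therefore given over all 10 tumors and over 9 tumors without it. All 8 melanoma cell markers had counts in every tumor. Their summed level, in CPM (counts scaled to 1000000 per library after TMM normalisation), was 12206 to 20246 in KO tumors and 19737 to 22225 in NTC replicates 2 to 5, and it was 11665 in NTC replicate 1. The 10 leukocyte markers summed to 1031 to 6227 CPM in KO tumors, to 347 to 1396 CPM in NTC replicates 2 to 5 and to 5016 CPM in NTC replicate 1, and all 10 had a count in every tumor. Red blood cell markers, all 4 with counts in every tumor, summed to 242 to 1567 CPM in KO tumors. In NTC replicates 2 to 5 they summed to 73.3 to 202 CPM, below every KO tumor, and in NTC replicate 1 to 418 CPM. By edgeR's quasi-likelihood test over 10 tumors, all 4 were higher in KO tumors at an unadjusted p under 0.05, against 3.99% of all genes. In bulk tumors, fewer cells of a type and less RNA per cell cannot be told apart.

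None of the 96 respiratory chain genes was called different between KO and NTC tumors. All 96 passed the filter on low counts and entered the test. A gene was called at a Benjamini-Hochberg adjusted p under 0.05 and an absolute log2 fold change above 1 in edgeR's quasi-likelihood test, and by that rule 3 of 15821 genes (0.0190%) were called over 10 tumors and 17 of 16078 (0.106%) over 9. The lowest adjusted p of a member was 0.302 over 10 tumors and 0.147 over 9. DESeq2 over the 10 tumors also called no member, against 96 genes in all (0.607%). At an unadjusted p under 0.05, edgeR gave 8 nuclear members lower in KO tumors and 1 higher over 10 tumors, which is 9.41% of the 85 lower against 4.86% of all genes lower and 3.99% higher. DESeq2 gave 8 lower as well, against 5.44% of all genes.

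The nuclear genes as a group had more negative than positive fold changes. Of the 85, 60 (70.6%) had a lower fitted level in KO tumors, against 48.7% of all genes, and their median log2 fold change was -0.09, against 0.01 over all genes tested. Over 9 tumors 69 (81.2%) were lower, against 51.9% of all genes, with a median of -0.18 against -0.02, and 59 genes were lower in both fits. The number lower at an unadjusted p under 0.05 was then 26 (30.6%), against 8.10% of all genes, and 1 was higher, against 12.0%. All 8 genes of the fit over 10 tumors were among these 26. Leaving out other tumors moved the count the other way: it was 2 of 85 (2.35%) without KO replicate 1, without KO replicate 5 or without NTC replicate 2, against 4.38%, 3.68% and 3.91% of all genes, with medians of -0.05, -0.09 and -0.04. Members are not independent replicates, so these shares are descriptions of the list. A median of -0.18 corresponds to 0.883 of the NTC level.

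Library quality and cell content moved with this result. Fibroblast markers, all 7 with counts in every tumor, summed to 924 to 5366 CPM in KO tumors, 57.6 to 1635 CPM in NTC replicates 2 to 5 and 6040 CPM in NTC replicate 1. With the percentage of reads outside genes as a covariate over all 10 tumors, the nuclear median was -0.17 and 34 members (40.0%) were lower at an unadjusted p under 0.05, against 6.04% of all genes. With the leukocyte marker level as a covariate, the median was -0.02, 47 of 85 were lower, and 3 (3.53%) passed that p, against 6.80% of all genes. With the melanoma marker level as a covariate the median was -0.05 and 8 (9.41%) passed, against 6.34% of all genes. Scaling by library totals alone gave a median of -0.04, while the median of all genes was 0.09. The part of leukocyte content in the difference was not tested further, and the parts of fibroblast and red blood cell content were not tested. Across all members and alternatives the lowest adjusted p was 0.0599, for *Ndufb8* with the melanoma covariate.

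**Figure D1:**
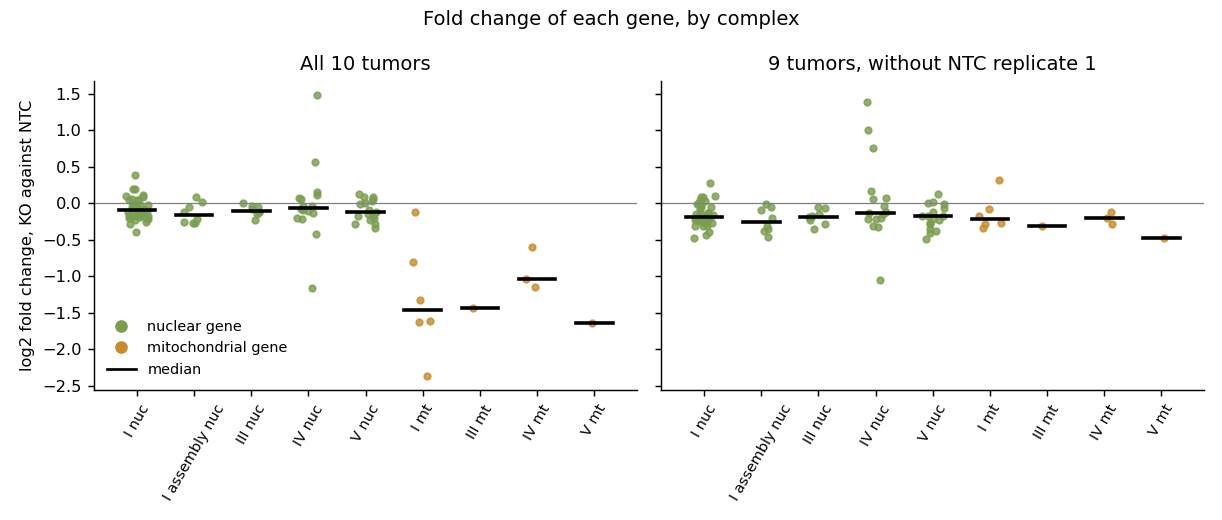
Each point is the log2 fold change (KO against NTC, edgeR) of 1 gene, nuclear in green and mitochondrial in ochre, grouped by complex, with the median of each group as a black line. Over 10 tumors (left) the mitochondrial medians lie between -1.64 and -1.04 and the nuclear ones between -0.16 and -0.06, whereas without NTC replicate 1 (right) the mitochondrial medians lie between -0.48 and -0.20 and the nuclear ones between -0.26 and -0.13.

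Complex I held the 2 nuclear members with the lowest p-values over 10 tumors, and they lay in opposite directions. *Ndufb8*, an accessory subunit of the membrane arm, was at 67.5, 80.5, 87.5, 74.2 and 72.5 CPM in KO tumors and at 47.7, 67.7, 62.6, 52.3 and 62.5 CPM in NTC tumors, replicates 1 to 5. The groups overlapped, since KO replicate 1 lay under NTC replicate 2. Its log2 fold change was 0.38 (SE 0.11, adjusted p = 0.302 by edgeR) over 10 tumors and 0.29 (adjusted p = 0.210) over 9, and it was the sole nuclear member higher at an unadjusted p under 0.05 in either fit. *Ndufv3*, a small subunit of the NADH-oxidising module, was at 79.3, 107, 108, 105 and 78.8 CPM in KO tumors and at 107, 137, 115, 144 and 127 CPM in NTC tumors. NTC replicate 1 was within the KO range, and the other 4 NTC tumors lay above all KO tumors. For *Ndufv3* the log2 fold change was -0.39 (SE 0.13, adjusted p = 0.367) over 10 tumors and -0.48 (adjusted p = 0.150) over 9.

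*Ndufs1*, the largest core subunit, which carries iron-sulfur clusters, was at 165 to 220 CPM in KO tumors, at 182 CPM in NTC replicate 1 and at 240 to 270 CPM in NTC replicates 2 to 5. The fitted log2 fold change was -0.28 (SE 0.12, adjusted p = 0.554) over 10 tumors and -0.39 (SE 0.11, adjusted p = 0.147) over 9. *Ndufs5*, an accessory subunit, was at 23.2 to 26.0 CPM in KO tumors, at 23.4 CPM in NTC replicate 1 and at 27.4 to 33.4 CPM in the other NTC tumors, and its log2 fold change was -0.22 (adjusted p = 0.594) over 10 tumors and -0.31 (adjusted p = 0.177) over 9. It shares 46.9% of its transcript with other annotated genes, so its counts are uncertain. *Ndufc2*, with 111 CPM per kilobase of exon the most abundant nuclear complex I mRNA per length, was at 68.1 to 83.2 CPM in KO and 69.5 to 109 CPM in NTC tumors, with a log2 fold change of -0.17 (adjusted p = 0.713) over 10 tumors and -0.27 (adjusted p = 0.217) over 9. Over the 36 nuclear subunits, 26 were lower, with a median of -0.09 over 10 tumors and -0.18 over 9, and 9 (25.0%) were lower at an unadjusted p under 0.05 over 9 tumors, against 8.10% of all genes. Their log2 fold changes ran from -0.39 to 0.38 over 10 tumors and from -0.48 to 0.29 over 9, with *Ndufv3* and *Ndufb8* at the ends.

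The assembly factors of complex I, which build it but are not part of it, were low in abundance. *Ndufaf4* had a mean of 26.0 ± 1.55 CPM (SD, n = 5) in KO and 31.1 ± 3.72 CPM (SD, n = 5) in NTC tumors, with a log2 fold change of -0.26 (SE 0.10, adjusted p = 0.493) over 10 tumors and -0.32 (adjusted p = 0.193) over 9. *Ndufaf1* was at 13.8 to 17.4 CPM in KO and at 15.7 to 21.7 CPM in NTC tumors, with a log2 fold change of -0.27 (SE 0.12, adjusted p = 0.541) over 10 tumors and -0.35 (adjusted p = 0.201) over 9. In both genes the groups overlapped, *Ndufaf4* through NTC replicate 5 and *Ndufaf1* through KO replicate 3. The 8 factors had a median of -0.16 over 10 tumors, where 6 were lower, and -0.26 over 9, where all 8 were lower, and of 0.012 with the leukocyte covariate. *Ndufaf5*, named here after its values were seen because its groups did not overlap without NTC replicate 1, was at 15.5 to 18.7 CPM in KO tumors, at 21.3 to 28.6 CPM in NTC replicates 2 to 5 and at 11.3 CPM in NTC replicate 1.

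The 8 nuclear subunits of complex III had a median log2 fold change of -0.10 over 10 tumors, where 7 were lower, and -0.18 over 9, where all 8 were lower. *Uqcr10*, a small subunit, was the highest of them per kilobase of merged exons, at 233 CPM. It was at 108, 137, 151, 121 and 110 CPM in KO tumors and at 108, 191, 145, 130 and 157 CPM in NTC tumors. The ranges overlapped, and the log2 fold change was -0.22 (SE 0.16, adjusted p = 0.715) over 10 tumors and -0.35 (adjusted p = 0.233) over 9. None of the 8 passed an unadjusted p of 0.05 over 10 tumors, and 2 (25.0%) did over 9, both lower, against 8.10% of all genes. *Uqcr10* was at the low end of the list, whose other members reached up to 0.0054 over 10 tumors and -0.047 over 9.

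In complex IV, cytochrome c oxidase, the 16 nuclear members had a median of -0.06 over 10 tumors and -0.13 over 9, with 10 lower in each, and the median was slightly positive with the leukocyte covariate and without NTC replicate 2. *Cox8a* was the highest per kilobase of merged exons (368 CPM) of all nuclear members with an annotated length. It was at 183 to 261 CPM in KO and 188 to 274 CPM in NTC tumors. The log2 fold change was -0.04 (adjusted p = 0.950) over 10 tumors and -0.13 (adjusted p = 0.553) over 9. Its sign turned with library totals only, with the marker covariates of leukocytes and melanoma cells, without KO replicate 1 and without NTC replicate 2. *Cox6b1* (-0.12) and *Cox7b* (-0.10) also had small negative log2 fold changes, with adjusted p-values of 0.728 and 0.818, and were at -0.15 and -0.20 over 9 tumors (adjusted p = 0.420 and 0.307). The list contains tissue-restricted forms, which replace the common form of a subunit in particular cell types.

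Those forms were rare beside their common counterparts in most tumors. *Cox4i2*, *Cox6a2* and *Cox7a1* reached at most 0.607%, 1.42% and 1.46% of the counts of their pair in a tumor. *Ndufa4l2* reached 10.5% in NTC replicate 1 and 3.89% in KO replicate 5. *Cox7a1*, the heart and skeletal muscle form of the subunit whose common form is *Cox7a2*, was at 0.409, 0.379, 0.874, 0.396 and 0.888 CPM in KO tumors and at 1.88, 0.721, 1.26, 1.01 and 1.80 CPM in NTC tumors. These are 10 to 26 counts per KO tumor and 14 to 52 per NTC tumor, and only NTC replicate 2 lay within the KO range. The log2 fold change was -1.15 (SE 0.39, adjusted p = 0.401) over 10 tumors and -1.05 (adjusted p = 0.207) over 9. *Cox7a1* made up 0.414% ± 0.187 of the counts of the pair in KO and 0.847% ± 0.414 in NTC tumors (SD, n = 5 each). *Cox7a2* was at 143 ± 17.3 CPM in KO and 164 ± 22.3 CPM in NTC tumors (SD, n = 5 each), with a log2 fold change of -0.20 (adjusted p = 0.657) over 10 tumors and -0.31 (adjusted p = 0.183) over 9.

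*Cox6a2*, the muscle form beside the common *Cox6a1*, lay the other way, at 0.287, 2.12, 0.639, 1.33 and 1.15 CPM in KO tumors and 0.269, 0.164, 0.535, 0 and 0.935 CPM in NTC tumors. The ranges overlapped, and the log2 fold change of 1.48 (SE 0.80, adjusted p = 0.634) over 10 tumors and 1.38 (adjusted p = 0.371) over 9 did not pass. The skeletal muscle markers moved with it in part. The 12 markers summed to 2.58 to 231 CPM in KO tumors, 1.34 to 2.03 CPM in NTC replicates 2 to 5 and 9.14 CPM in NTC replicate 1. They were highest in KO replicates 4 and 3, while *Cox6a2* was highest in KO replicate 2. Of the 12 markers, 9 were at 0 in some tumor. *Cox4i2*, known from lung and induced by low oxygen, was at 0.540 to 1.18 CPM in KO and 0.0812 to 1.48 CPM in NTC tumors (log2 fold change 0.57, adjusted p = 0.831, over 10 tumors and 1.00, adjusted p = 0.381, over 9). *Ndufa4l2*, a hypoxia-induced relative of *Ndufa4*, was at 1.88 to 7.28 CPM in KO tumors, 0.688 to 3.31 CPM in NTC replicates 2 to 5 and 16.3 CPM in NTC replicate 1. The log2 fold change was -0.42 (adjusted p = 0.890) over 10 tumors and 0.76 (adjusted p = 0.406) over 9, a change of sign that rests on that library.

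The common forms *Cox4i1* (log2 fold change -0.09), *Cox6a1* (-0.04) and *Ndufa4* (0.12), a subunit of complex IV despite its name, had adjusted p-values of 0.875, 0.940 and 0.874. The sign of *Cox4i1* turned with the leukocyte covariate and that of *Cox6a1* with library totals only, and over 9 tumors the log2 fold changes were -0.21, -0.12 and -0.04 (adjusted p = 0.371, 0.596 and 0.902). *Cox8b* and *Cox6b2*, muscle and testis forms under the count limit, reached at most 26 and 13 counts in a tumor, and *Cox7b2* had none.

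**Figure D2:**
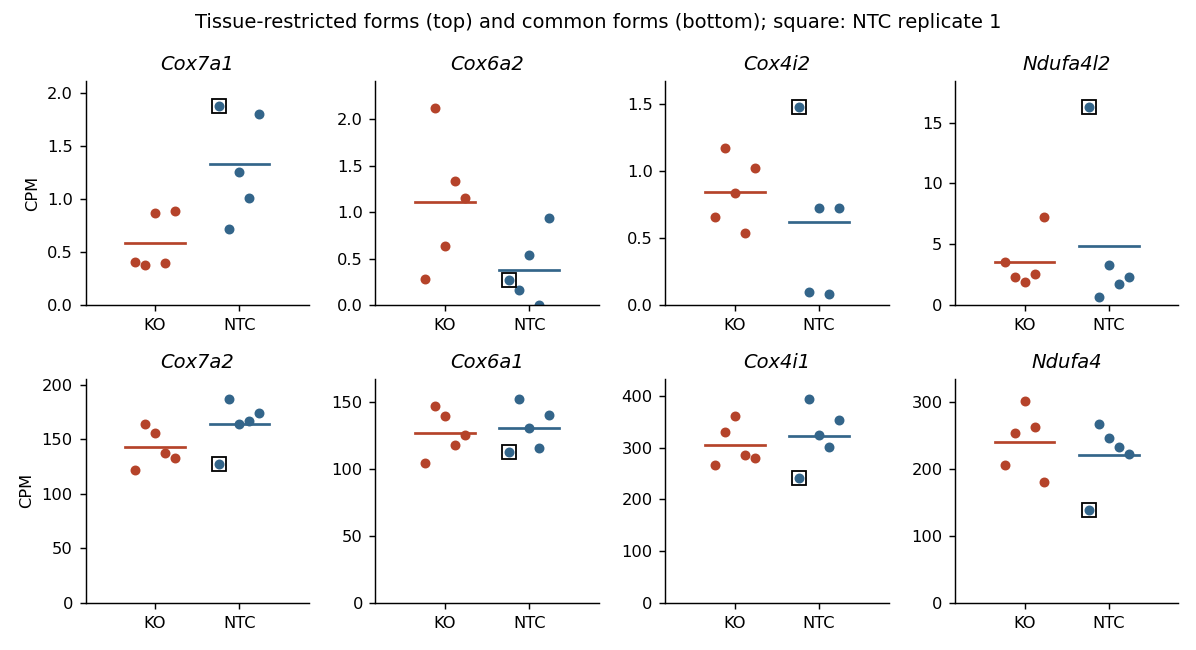
CPM per tumor of 4 tissue-restricted forms (top) and their common counterparts (bottom), with KO tumors in red, NTC tumors in blue, the group mean as a line and NTC replicate 1 in a square; every axis starts at 0. *Cox7a1* lies between 0.379 and 0.888 CPM in KO and between 0.721 and 1.88 CPM in NTC tumors, and the common forms lie above 100 CPM in every tumor.

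Complex V held most of the nuclear members whose groups did not overlap. Over 10 tumors, 1 nuclear member had every KO tumor below every NTC tumor, against 1.47% of all genes, and none had every KO tumor above, against 0.866%. This was *Atp5a1*, which encodes the α subunit of the catalytic F1 head. It was at 393, 515, 511, 500 and 426 CPM in KO tumors and at 522, 651, 538, 533 and 617 CPM in NTC tumors, with NTC replicate 1 just above the highest KO tumor. The fold change on the log2 scale was -0.29 (SE 0.11, adjusted p = 0.476) over 10 tumors and -0.35 (SE 0.12, adjusted p = 0.188) over 9.

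Without NTC replicate 1, 10 of 85 nuclear members (11.8%) had every KO tumor below every NTC tumor, against 3.59% of all genes, and none had every KO tumor above, against 2.71%. Of these 10, 6 were among the 17 of complex V (35.3%), 3 among the 36 of complex I (8.33%) and 1 among the 8 assembly factors, and none belonged to complexes III or IV. Whether complex V differed from the other complexes was not tested. Its 6 genes were *Atp5a1*, *Atp5b* (β, the catalytic subunit of F1), *Atp5c1* (γ, the rotating shaft), *Atp5o* (OSCP, in the stalk that holds F1 still), *Atp5j* (F6, in the same stalk) and *Atp5g3* (subunit c, the proton-driven ring). *Atp5c1*, *Atp5j* and *Atp5g3* are named for this order, after their values were seen.

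*Atp5b* was the highest of complex V per kilobase of merged exons (290 CPM). Such ranks depend on the length used, since its merged exons hold 4237 bases and its longest annotated transcript 1916. *Atp5b* was at 934, 1191, 1314, 1194 and 1023 CPM in KO tumors and at 884, 1607, 1347, 1368 and 1446 CPM in NTC tumors. NTC replicate 1 was the lowest of all 10, and the other NTC tumors were the 4 highest. The log2 fold change was -0.23 (SE 0.16, adjusted p = 0.713) over 10 tumors and -0.38 (SE 0.13, adjusted p = 0.186) over 9. *Atp5g3* was at 131, 184, 196, 189 and 145 CPM in KO tumors and at 133, 269, 197, 223 and 242 CPM in NTC tumors. It had the most negative log2 fold change of complex V, -0.33 (SE 0.19, adjusted p = 0.640) over 10 tumors and -0.49 (SE 0.15, adjusted p = 0.171) over 9. The gap between KO replicate 3 and NTC replicate 3 was small, at 196 against 197 CPM.

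*Atp5c1* was at 291 to 344 CPM in KO tumors, at 296 CPM in NTC replicate 1 and at 356 to 408 CPM in the other NTC tumors, with log2 fold changes of -0.17 over 10 tumors and -0.27 over 9 (adjusted p = 0.638 and 0.185). *Atp5o* was at 84.5 to 108 CPM in KO tumors, at 90.1 CPM in NTC replicate 1 and at 113 to 142 CPM in the others, with log2 fold changes of -0.29 and -0.40 (adjusted p = 0.550 and 0.153). Its symbol is on a pair of rows, 1 of them empty, and on a pair of annotated genes that the files do not tell apart, so its counts are uncertain. *Atp5j* was at 93.4 to 110 CPM in KO tumors, at 99.4 CPM in NTC replicate 1 and at 114 to 128 CPM in the others, with log2 fold changes of -0.15 and -0.23 (adjusted p = 0.645 and 0.208), and it shares 29.7% of its transcript with *Gabpa*. *Atp5h* (subunit d of the stalk) overlapped between groups, with 136 ± 12.4 and 156 ± 10.3 CPM (SD, n = 5 each) and log2 fold changes of -0.20 over 10 tumors and -0.21 over 9 (adjusted p = 0.514 and 0.235), and 34.0% of its transcript is shared with other genes. All 17 genes had a median of -0.12 over 10 tumors, with 11 lower, and -0.18 over 9, with 14 lower and 8 (47.1%) at an unadjusted p under 0.05, against 8.10% of all genes. The rest, 6 over 10 tumors and 3 over 9, were higher in KO tumors, with log2 fold changes of at most 0.13.

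As a share of all nuclear member counts, complex V took 35.2%, 35.9%, 36.2%, 37.0% and 36.0% in KO tumors and 36.0%, 37.8%, 37.4%, 37.9% and 38.3% in NTC tumors. The NTC tumors other than replicate 1 were above every KO tumor. This share does not depend on how libraries are scaled. The leukocyte marker sum moved with it: KO replicates 1, 2 and 5 and NTC replicate 1, at 2721 to 6227 CPM, had shares of 35.2% to 36.0%, and the other 6 tumors, at 347 to 1396 CPM, had shares of 36.2% to 38.3%. The part of leukocyte content in the share was not tested. Complex IV took 24.1% to 25.4% in KO tumors, 23.5% to 24.3% in NTC replicates 2 to 5 and 24.7% in NTC replicate 1. Complex III took 10.2% to 10.5% in KO and 10.0% to 10.5% in NTC tumors. Complex I took 27.1% to 27.7% in KO tumors, 26.3% to 26.9% in NTC replicates 2 to 5 and 27.5% in NTC replicate 1. Without this library the groups did not overlap in the complex I share, with the KO tumors higher. The shares are parts of 1 whole, so this is not separate from the lower share of complex V.

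**Figure D3:**
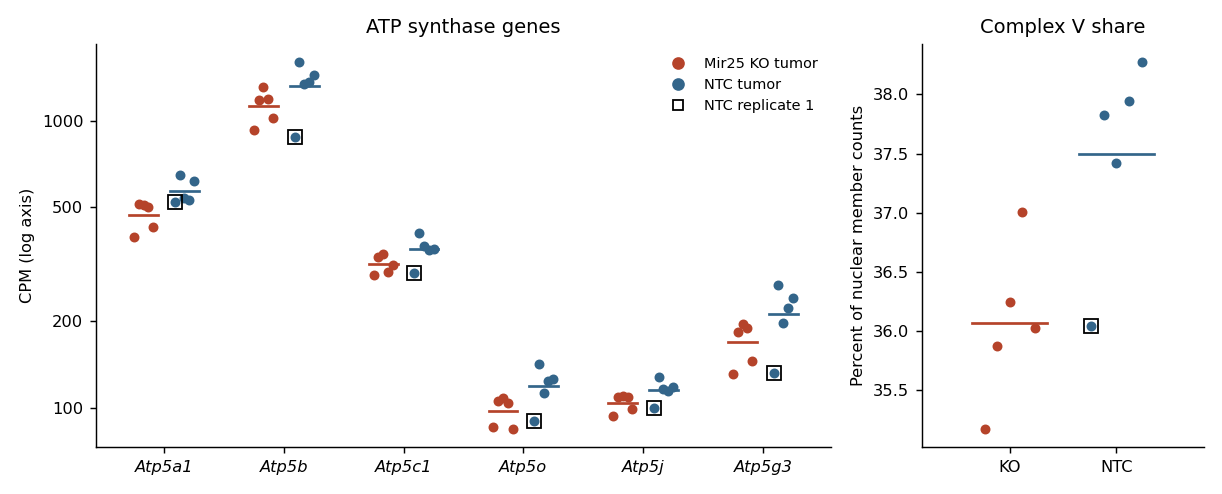
Left, CPM (log axis) of the 6 complex V genes whose KO and NTC tumors did not overlap without NTC replicate 1 (square); KO tumors are red, NTC tumors blue and lines are group means. Right, the percentage of all nuclear member counts that fell on the 17 complex V genes (the axis does not start at 0), with KO tumors between 35.2% and 37.0% and NTC replicates 2 to 5 between 37.4% and 38.3%.

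For the mitochondrial genes, the counts are limited by a copy of part of the mitochondrial genome in the nucleus. On chromosome 1 of GRCm38, the annotation (GENCODE M21) holds pseudogenes from *Gm28439* (24611535 to 24612410, minus strand) to *Gm29216* (24615706 to 24616197, minus strand) that repeat *mt-Co2*, *mt-Atp6*, *mt-Co3*, *mt-Nd3* and *mt-Nd4l* nearly in full. *mt-Co2* (mitochondrial genome, 7013 to 7696, plus strand) is identical to *Gm28661* (24614885 to 24615565, minus strand) over 681 of its 684 bases, and *mt-Nd4* over 63.6% of its length to *Gm28439*. *mt-Co1* (5328 to 6872, plus strand) shares 483 bases with *Gm29216*, 31.3% of its length, with 1 mismatch. A further pseudogene, *Gm13340*, matches all 1545 bases of *mt-Co1* at 97% identity or more. The deposited files keep reads without a unique alignment in a row of their own, apart from the genes, and that row held 12.8% to 20.4% of the reads per tumor. The first 90 bases of *mt-Co2*, and bases 1063 to 1152 of *mt-Co1*, show what a read can and cannot tell apart. Each is given in the direction of the gene with its chromosome 1 copy, and a capital marks the base that differs between them.
mt-Co2: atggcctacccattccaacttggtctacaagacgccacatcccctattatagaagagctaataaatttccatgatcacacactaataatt
Gm28661: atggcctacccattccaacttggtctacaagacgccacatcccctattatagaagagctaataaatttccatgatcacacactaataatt
mt-Co1: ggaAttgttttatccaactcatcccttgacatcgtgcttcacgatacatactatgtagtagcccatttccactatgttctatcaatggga
Gm29216: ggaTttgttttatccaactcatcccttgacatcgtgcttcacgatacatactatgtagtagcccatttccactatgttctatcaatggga
The *mt-Co2* pair has no capital, and a read lying within that stretch fits both places. Summed over the 10 tumors, *mt-Co1* had 3816084 counts, *mt-Co2* 1683, *mt-Co3* 1637, *mt-Atp6* 780 and *mt-Nd3* 164. Levels of the copied genes therefore do not show the abundance of their mRNAs.

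The mitochondrial mRNAs were highest in NTC replicate 1. They took 1.77%, 1.44%, 1.39%, 1.93% and 1.44% of the reads on genes in KO tumors and 6.30%, 1.78%, 1.44%, 3.01% and 1.41% in NTC tumors. NTC replicates 1 and 4 were above all others, and the remaining NTC tumors were within the KO range. These libraries had the most reads outside genes (42.9% and 28.2%, with KO replicate 1 at 28.0%) and the largest share of mitochondrial rRNA, 23.1% and 9.50% of reads on genes, against 2.57% to 4.96% in all others. The nuclear members took 0.892% to 1.20% in KO tumors, 1.05% to 1.31% in NTC replicates 2 to 5 and 0.548% in NTC replicate 1. Most of the mitochondrial share was *mt-Co1*, with at least 282406 counts per tumor, where *mt-Cytb*, the next highest, reached at most 67676.

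**Figure D4:**
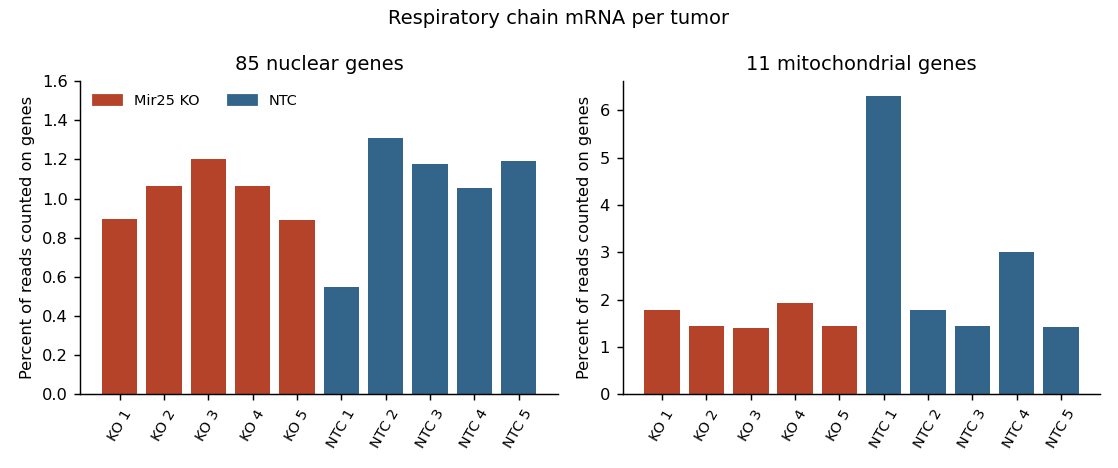
Bars give the percentage of the reads counted on genes that fell on the 85 nuclear members (left) and the 11 mitochondrial members (right) in each tumor, KO in red and NTC in blue. NTC replicate 1 has the lowest nuclear share (0.548%) and the highest mitochondrial share (6.30%).

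All 11 mitochondrial members had a lower fitted level in KO tumors over 10 tumors, with a median log2 fold change of -1.32, and 2 (18.2%) were lower at an unadjusted p under 0.05, against 4.86% of all genes. Without NTC replicate 1, 10 of 11 were lower, the median was -0.26, and none passed an unadjusted p of 0.05. With the percentage of reads outside genes as a covariate the median was -0.15. *mt-Nd6*, a complex I gene and the sole member on the minus strand (13552 to 14070), was at 31.3, 22.6, 19.7, 25.0 and 30.7 CPM in KO tumors and at 547, 27.5, 28.4, 42.8 and 22.6 CPM in NTC tumors. NTC replicate 1 was 18.0 times the mean of the other NTC tumors, the largest such ratio among the 11, against 3.22 to 8.96 for the rest. The log2 fold change was -2.36 (SE 0.91, adjusted p = 0.486) over 10 tumors and -0.26 (adjusted p = 0.467) over 9. The authors' strand setting is not given in the sources used here, and *mt-Nd6* overlaps the end of *mt-Nd5* (11742 to 13565, plus strand).

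*mt-Nd2* was at 354, 197, 172, 319 and 188 CPM in KO tumors and 2554, 236, 211, 544 and 223 CPM in NTC tumors, with a log2 fold change of -1.61 (SE 0.71, adjusted p = 0.547) over 10 tumors and -0.33 (adjusted p = 0.585) over 9. *mt-Co1*, the catalytic subunit of complex IV and the member with the most uniquely aligned counts per length (12767 CPM per kilobase), was at 10278 to 13873 CPM in KO tumors, 10584 to 23435 CPM in NTC replicates 2 to 5 and 77444 CPM in NTC replicate 1. On the log2 scale the fold change was -1.14 (adjusted p = 0.591) over 10 tumors and -0.28 (adjusted p = 0.534) over 9. *mt-Cytb*, the cytochrome b of complex III, was at 782 to 1443 CPM in KO tumors, 851 to 2305 CPM in NTC replicates 2 to 5 and 9101 CPM in NTC replicate 1, with log2 fold changes of -1.43 (adjusted p = 0.567) and -0.31 (adjusted p = 0.597). In these 3 genes NTC replicates 1 and 4 were the highest tumors, and without replicate 1 the ranges overlapped. Per kilobase, *mt-Cytb* (1706 CPM) and *mt-Nd1* (1474 CPM) followed *mt-Co1*, and *mt-Nd2* (482 CPM), *mt-Nd5* (469 CPM), *mt-Nd4* (306 CPM) and *mt-Nd6* (154 CPM) came after them. The place of *mt-Nd4* is uncertain, since 63.6% of its length is copied on chromosome 1.

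The other complex I genes *mt-Nd1*, *mt-Nd4* and *mt-Nd5* had log2 fold changes of -0.80, -1.32 and -1.63 over 10 tumors (adjusted p = 0.645, 0.636 and 0.601) and of -0.08, -0.18 and -0.29 over 9 (adjusted p = 0.835, 0.848 and 0.762). The genes copied nearly in full on chromosome 1, *mt-Co2*, *mt-Co3*, *mt-Atp6* and *mt-Nd3*, had log2 fold changes of -1.04, -0.60, -1.64 and -0.12 over 10 tumors (adjusted p = 0.689, 0.748, 0.635 and 0.962) and of -0.20, -0.12, -0.48 and 0.32 over 9 (adjusted p = 0.850, 0.883, 0.723 and 0.739). Leaving these 4 out, the median of the other 7 was -1.43 over 10 tumors and -0.28 over 9. Their levels, 2.16 CPM per kilobase for *mt-Nd3* to 12.7 for *mt-Co2*, are those of what could be aligned uniquely.

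**Figure D5:**
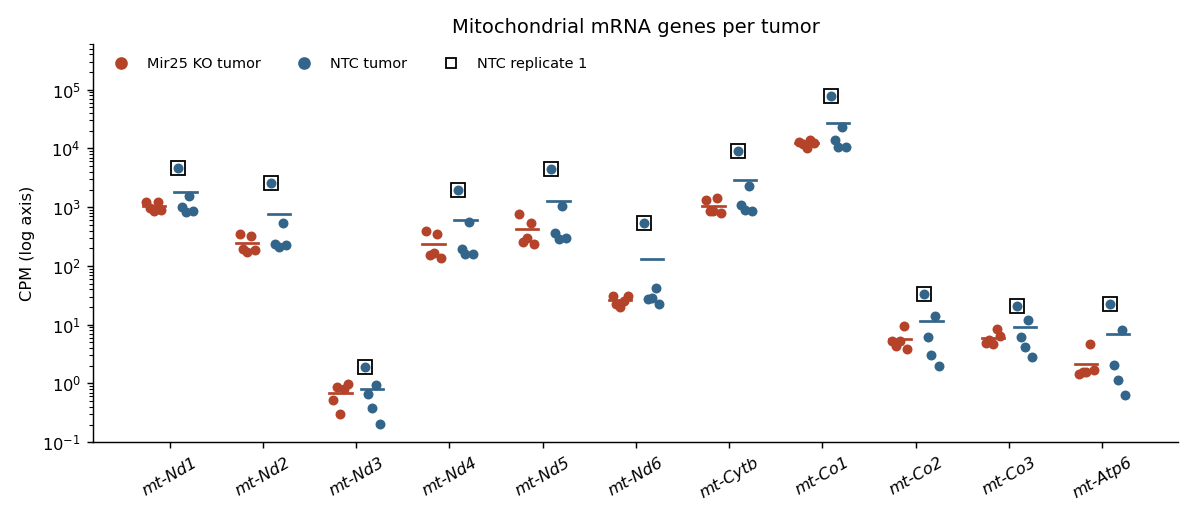
CPM (log axis) of the 11 mitochondrial genes in each tumor, with KO tumors in red, NTC tumors in blue, group means as lines and NTC replicate 1 in a square. NTC replicate 1 is the highest tumor for every gene, at 77444 CPM for *mt-Co1* and 547 CPM for *mt-Nd6*.

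The balance between the genomes followed the same libraries. The log2 ratio of summed mitochondrial to summed nuclear member counts, a value that needs no scaling of libraries, was 0.99, 0.44, 0.21, 0.86 and 0.69 in KO tumors and 3.52, 0.45, 0.29, 1.52 and 0.25 in NTC tumors. Its mean was 0.64 ± 0.31 (SD, n = 5) in KO tumors, 1.20 ± 1.40 (SD, n = 5) in NTC tumors and 0.63 ± 0.60 (SD, n = 4) without NTC replicate 1. The group means differed by -0.57 over 10 tumors and by 0.01 over 9, both less than the larger of the SDs. Within complex I the ratio had a mean of -0.49 ± 0.52 (SD, n = 5) in KO tumors and -0.54 ± 0.65 (SD, n = 4) in NTC replicates 2 to 5, within complex III 0.01 ± 0.47 and 0.05 ± 0.71, and within complex IV 2.33 ± 0.29 and 2.39 ± 0.60. Complex V, whose mitochondrial gene is copied on chromosome 1, gave -10.83 ± 0.70 and -11.13 ± 1.62. None of these differences exceeded the spread between tumors. The ratios over all members and within complex IV rest mainly on *mt-Co1*, which the pseudogene *Gm13340* matches over its whole length. Summed over the 10 tumors, *mt-Co1* had 3816084 counts, *mt-Co2* 1683 and *mt-Co3* 1637.

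Of the other genes of the pathway, none was called by edgeR in the fits without covariates over 10 or 9 tumors. In complex II, succinate dehydrogenase, which has no mitochondrial gene, *Sdha* (the flavoprotein), *Sdhb* (the iron-sulfur subunit) and the membrane anchors *Sdhc* and *Sdhd* had log2 fold changes of 0.04, -0.19, -0.07 and -0.05 over 10 tumors (adjusted p = 0.936, 0.739, 0.883 and 0.919) and of -0.04, -0.34, -0.19 and -0.18 over 9 (adjusted p = 0.833, 0.169, 0.321 and 0.305). The 12 citrate cycle genes had a median of -0.18 over 10 tumors, 11 were lower and 4 at an unadjusted p under 0.05, against 4.86% of all genes. Over 9 tumors all 12 were lower, 8 of them at that p, against 51.9% and 8.10% of all genes, with a median of -0.26. Their lead gene *Idh3a*, of isocitrate dehydrogenase, was at 129 to 168 CPM in KO tumors, 204 to 257 CPM in NTC replicates 2 to 5 and 151 CPM in NTC replicate 1, with a log2 fold change of -0.49 (SE 0.14, adjusted p = 0.289) over 10 tumors and -0.63 (SE 0.11, adjusted p = 0.0691) over 9. For the citrate cycle list, the part of leukocyte content was not tested.

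Among the 4 electron carriers the median was -0.19 over 10 tumors and -0.27 over 9, with *Etfa* (-0.22, adjusted p = 0.463, and -0.25, adjusted p = 0.208) at the lowest p over 10 tumors. The 77 tested mitochondrial ribosome genes had a median of -0.06 and -0.13, with 52 (67.5%) and 64 (83.1%) lower, against 48.7% and 51.9% of all genes, 4 and 10 of the 77 lower at an unadjusted p under 0.05, against 4.86% and 8.10%, and *Mrps35* (-0.23, adjusted p = 0.536, and -0.26, adjusted p = 0.257) at the lowest p over 10 tumors. Assembly factors of complexes III, IV and V had a median of -0.02 and -0.10, led by the F1 assembly factor *Atpaf1* (-0.28, adjusted p = 0.324, and -0.30, adjusted p = 0.173). The 15 genes of mitochondrial DNA upkeep and transcription had -0.02 and -0.10, with 8 and 10 lower, led by the helicase gene *Twnk* (0.44, adjusted p = 0.597, and 0.25, adjusted p = 0.348), and the 6 genes used as measures of mitochondrial mass -0.09 and -0.21, led by the outer membrane channel *Vdac1* (-0.42, adjusted p = 0.308, and -0.50, adjusted p = 0.146). Of the mitochondrial rRNA and tRNA genes, 6 were tested, with a median of -1.85 over 10 tumors, where all 6 were lower, and -0.20 over 9, where 3 were lower, and *mt-Rnr1* led with -2.06 (adjusted p = 0.513) and -0.56. Like the mRNAs of that genome, these followed NTC replicate 1.

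The largest difference among the 9 nuclear regulators was in *Ppargc1a*, the gene of the coactivator PGC-1α (chromosome 5 of GRCm38, 51454250 to 51567726, minus strand). It was at 146, 129, 127, 151 and 94.8 CPM in KO tumors and at 204, 247, 248, 430 and 235 CPM in NTC tumors. Every KO tumor was below every NTC tumor, NTC replicate 1 included. This order was found in 1.47% of all genes, and *Atp5a1* and *Atpaf1* had it as well. The log2 fold change was -1.07 (SE 0.21, adjusted p = 0.137 by edgeR) over 10 tumors and -1.19 (SE 0.20, adjusted p = 0.0612) over 9, neither of which was called. DESeq2 over 10 tumors gave -1.09 with an adjusted p of 0.000650, and edgeR with the melanoma marker covariate gave -1.01 with an adjusted p of 0.0473, both of which passed. Over the alternatives run, the adjusted p of *Ppargc1a* ranged from 0.000650 to 0.449. By edgeR, its log2 fold change was -0.81 (adjusted p = 0.0625) with the leukocyte covariate and -0.85 (adjusted p = 0.170) without NTC replicate 4. Without KO replicate 5 it was -0.98 (adjusted p = 0.284), and all of these fell short of the fold threshold. The list of regulators had a median of -0.07 over 10 tumors and -0.18 over 9, with 2 of 9 (22.2%) lower at an unadjusted p under 0.05 in each, against 4.86% and 8.10% of all genes. The related coactivator gene *Pprc1*, named after its values were seen, lay the other way at that p over 10 tumors, with log2 fold changes of 0.45 (adjusted p = 0.509) and 0.45 (adjusted p = 0.249).

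The promoters of the nuclear members were searched for textbook sites of the known regulators. RefSeq windows (GRCm38.p6, 250 bases before to 50 after the start) matched 70 of the 85 genes. Motifs were searched on both strands: for NRF-1 the palindrome made of GCGCA and its reverse complement TGCGC, for the ETS factor GABP the letters CCGGAAG and for YY1 the letters AAGATGGC. The NRF-1 motif was in 10.0% of the members, against 1.07% of the 27025 genes of the table, the ETS motif in 24.3%, against 9.93%, and the YY1 motif in 15.7%, against 3.19%. Any of them was in 31 of 70 members (44.3%), against 13.4% of genes. Shown are the windows of *Ndufb8*, the member with the lowest p over 10 tumors and higher in KO tumors, of the assembly factor *Ndufaf4*, and of *Atp5j*, which overlaps *Gabpa*, the gene of a GABP subunit, with the motifs in capitals. They lie at chr19:44555393-44555692 (minus strand), chr4:24897833-24898132 (plus strand) and chr16:84834927-84835226 (minus strand).
Ndufb8: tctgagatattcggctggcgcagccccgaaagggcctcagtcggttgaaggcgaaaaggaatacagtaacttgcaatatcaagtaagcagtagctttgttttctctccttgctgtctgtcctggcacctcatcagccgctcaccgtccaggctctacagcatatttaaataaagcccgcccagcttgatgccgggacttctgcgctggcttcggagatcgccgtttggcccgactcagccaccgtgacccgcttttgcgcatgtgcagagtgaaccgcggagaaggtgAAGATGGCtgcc
Ndufaf4: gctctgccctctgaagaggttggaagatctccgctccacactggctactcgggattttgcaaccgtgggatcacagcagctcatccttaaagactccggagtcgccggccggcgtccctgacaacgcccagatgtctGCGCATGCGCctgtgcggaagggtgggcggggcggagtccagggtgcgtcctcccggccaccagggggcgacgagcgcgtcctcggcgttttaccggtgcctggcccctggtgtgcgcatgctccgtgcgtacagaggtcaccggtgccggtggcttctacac
Atp5j: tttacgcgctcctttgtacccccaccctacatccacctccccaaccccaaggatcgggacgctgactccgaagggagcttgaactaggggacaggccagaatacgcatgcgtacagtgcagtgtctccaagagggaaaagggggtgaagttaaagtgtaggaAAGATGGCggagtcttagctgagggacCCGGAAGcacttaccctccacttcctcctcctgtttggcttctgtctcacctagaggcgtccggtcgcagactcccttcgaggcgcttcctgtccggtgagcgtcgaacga
In these windows the capitals mark a YY1 motif in *Ndufb8*, an NRF-1 motif in *Ndufaf4*, and a YY1 and an ETS motif in *Atp5j*. *Atp5j* has another window in the table, at chr16:84835576-84835875, that holds none of the motifs, and a gene was counted with a motif where any of its windows held it. The 31 members with a motif had a median log2 fold change of -0.05 over 10 tumors and -0.15 over 9, with 22 and 25 lower, and the 39 without one -0.11 and -0.21, with 29 and 34 lower. Both kinds of promoter occurred among genes with negative and positive fold changes.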

How the data were processed

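Per the labels, RNA sequencing covered 10 B16F10 tumors, 5 *Mir25* KO and 5 NTC. The authors' processing notes name FastQC, Trimmomatic, HISAT2, HTSeq and mm10, and the authors deposited raw counts of reads per gene without normalization. The HTSeq version, strand setting and annotation are not given in the sources used here. Summary rows were left out of library sizes, and repeated symbols were kept as separate rows.

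KO was compared with NTC by edgeR 4.0.16 in R 4.3.3 (quasi-likelihood test, TMM scaling, filterByExpr, Benjamini-Hochberg adjustment over all genes), over 10 tumors and over 9 without NTC replicate 1. SEs were obtained from the fold change and its F statistic. On simulated data with 15821 genes, recovery was counted at an adjusted p under 0.05 without the fold threshold. Over 10 tumors, 62 of 100 genes changed 2-fold and 97 of 100 changed 4-fold were recovered, and 8 unchanged genes passed. Smaller changes and changes in genes of low abundance were not simulated. The simulation therefore gives no recovery rate for changes of the size seen in most nuclear members. Alternatives were DESeq2 1.42.0, other scaling and filters, a replicate block, marker covariates and each tumor left out. Leaving out copied mitochondrial genes and the covariates of reads outside genes and of melanoma markers were chosen after seeing the data.

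The members, gene lists and motifs were chosen with earlier results of these data known. Genes named in the text are the mitochondrial members, the 10 nuclear members with the lowest p over 10 tumors and the isoform pairs. Also named are the nuclear member of each complex with the most CPM per kilobase of merged exons, complex II, and the gene with the lowest p of each other list. *Ndufaf5*, *Atp5c1*, *Atp5j*, *Atp5g3* and *Pprc1* were named after their values were seen. Positions, exon lengths and copies (BLAST 2.17.0, at least 97% identity over at least 50 bases) came from GENCODE M21, which has 94 of the 96 members, and promoters from RefSeq. Tables used Python 3.11.15 with pandas 2.3.3. Figures used matplotlib 3.10.9. Reads carry no molecular identifiers.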

Additional observations from a re-analysis of the deposited data

Results flagged for a closer look

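In groups of 5 tumors, a tumor was singled out where its gap to the nearest other tumor, divided by the range of the group, exceeded Dixon's 95% critical value. Of 92 groups tested, 12 held such a tumor, and chance gives about 1 in 20 groups. NTC replicate 1 accounted for 8 of them. It was the highest NTC tumor for *mt-Nd1* (4688 CPM, the others 840 to 1526), *mt-Nd2* (2554, the others 211 to 544), *mt-Nd4* (1940, the others 160 to 553), *mt-Nd5* (4467, the others 289 to 1053), *mt-Nd6* (547, the others 22.6 to 42.8), *mt-Cytb* (9101, the others 851 to 2305), *mt-Co1* (77444, the others 10584 to 23435) and *Ndufa4l2* (16.3, the others 0.688 to 3.31).

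KO replicate 4 was the highest KO tumor for *mt-Co2* (9.39 CPM, the others 3.82 to 5.21), for *mt-Atp6* (4.64 CPM, the others 1.43 to 1.69) and for the log2 ratio of mitochondrial to nuclear counts in complex V (-9.61, the others -11.29 to -10.94), which rests on *mt-Atp6*. KO replicate 1 was the lowest KO tumor for *Ndufc2* (68.1 CPM, the others 78.8 to 83.2).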

How the results depend on the processing

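No member was called under any of the 21 alternative fits. All genes called higher (1) became 0 with at least 10 counts in every tumor, 4 with the leukocyte covariate, 3 with the melanoma covariate and 24 with DESeq2, and 1 to 2 with a tumor left out. All genes called lower (2) became 0 with library totals only, with the replicate block and with the skeletal muscle covariate, 6 with at least 10 counts in every tumor, 4 with the leukocyte covariate, 23 with the melanoma covariate, 72 with DESeq2 and 4 with no fold threshold, and 0 to 15 with a tumor left out. Nuclear members lower at an unadjusted p under 0.05 (8) became 1 with library totals only, 2 with no filter, 3 with the leukocyte covariate, 4 with the skeletal muscle covariate and 34 with the percentage of reads outside genes, and ranged from 2 to 26 with a tumor left out, the 26 without NTC replicate 1. Those higher (1) became 0 with library totals only, 3 with the replicate block, with the leukocyte covariate and with the melanoma covariate, and 2 with the muscle covariate, and ranged from 1 to 3 with a tumor left out. Mitochondrial members lower (2) became 6 with no filter, 0 with the replicate block, 7 with the leukocyte covariate, 5 with the muscle covariate, 0 with the percentage of reads outside genes and 4 with DESeq2, and 0 to 6 with a tumor left out.

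The median log2 fold change of mitochondrial members became -0.15 with the percentage of reads outside genes. That of mitochondrial complex I became -0.12 and ranged from -1.71 to -0.22 with a tumor left out, and that of complex III became -0.24 and ranged from -1.66 to -0.31. Complex I assembly became 0.012 with the leukocyte covariate, and nuclear complex IV ranged from -0.13 to 0.0082 with a tumor left out. The nuclear median stayed negative under every alternative, from -0.18 to -0.04 with a tumor left out. The difference in the share of complex V among nuclear member counts ranged from -1.80 to -1.21 percentage points.

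Of 46 genes named by rule and run under every alternative, 37 kept their direction in all fits, and *Ndufaf5*, *Atp5c1*, *Atp5j*, *Atp5g3* and *Pprc1* were not among the 46. *mt-Nd3* was at 0.076 with library totals only, 0.023 with the replicate block and 0.32 with reads outside genes, and from -0.39 to 0.32 with a tumor left out. *Cox4i1* was at 0.029 with the leukocyte covariate. *Cox6a1* was at 0.027 with library totals only and from -0.12 to 0.023 with a tumor left out. *Cox8a* was at 0.025 with library totals only, 0.015 with the leukocyte covariate and 0.0058 with the melanoma covariate, and from -0.13 to 0.033. *Ndufa4* was at -0.0042 with reads outside genes and from -0.040 to 0.21 with a tumor left out, and *Ndufa4l2* at 0.21 with the replicate block, 0.87 with reads outside genes and from -0.86 to 0.76. *Sdha* was at -0.039 with reads outside genes and from -0.042 to 0.094, *Sdhc* at 0.0082 with the leukocyte covariate, and *Sdhd* at 0.075 with the leukocyte covariate, 0.014 with the melanoma covariate and from -0.18 to 0.0041. *Ppargc1a* passed with DESeq2 (adjusted p = 0.000650) and with the melanoma covariate (adjusted p = 0.0473). The causes were not tested.

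The labels do not say whether the replicate numbers pair the tumors. Deviations from the group means correlated at 0.17, -0.29, 0.08, 0.63 and 0.21 for numbers 1 to 5. In these deviations, 2 KO tumors were closest to the NTC tumor of their own number, which does not settle the question. The replicate block, given as a paired analysis, left the nuclear median at -0.09 with 8 members lower and moved the mitochondrial median to -0.63.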
